A study of Mus musculus with 13 samples.

Results

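The genes described here are 10 genes around the cytochrome P450 enzymes of the mouse liver: Cyp2e1 and Cyp2a5, which activate diethylnitrosamine (DEN), the inducible P450 genes Cyp1a1, Cyp1a2, Cyp2b10, Cyp3a11 and Cyp3a13, the P450 reductase gene Por, and the receptor genes Ahr and Nr1i3. A gene was measured through the probe set annotated to its symbol alone, and 8 of the 10 genes had one, of 19938 genes on the array with such a probe set. The 8 all passed the filter on dim genes and were among 14953 genes tested. Por had no listed probe set, and Cyp2a5 had only one that is also annotated to Cyp2a4, so neither is given a level. Cyp3a11 was read from its own probe set, and another that it shares with 3 close relatives was not used.

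Liver RNA of young mice was measured on 13 arrays of 1 channel each, in 5 groups. Rb1 encodes the retinoblastoma protein, which restrains the E2F transcription factors. The RB-N750F mutant mice (5 arrays, DEN) carry a substitution in that protein, and their label names neither the second allele nor Cre. The knockout mice (2, DEN) had floxed Rb1 with Cre, and the heterozygous mice (2, DEN) had Cre with 1 of their alleles floxed and the other functional, and are tagged LOH elsewhere in their labels. The wild type mice had floxed Rb1 without Cre, either with DEN (2) or untreated (2), by the sample labels, while the design text gives all mice the Cre transgene. By the labels, knockout and heterozygous mice differ from wild type in Cre as well as in Rb1. DEN was injected once, at 20 mg/kg body weight, into mice 14 days old, and livers were taken after 24 h, with saline for the untreated mice. Cre is driven by the albumin promoter, so floxed Rb1 is targeted mainly in hepatocytes. How complete the deletion was, and in which cells, was not measured here. Only wild type mice were sampled untreated, so the effect of DEN within the other genotypes could not be measured. The labels do not say whether the mice of a group shared a litter, and each p-value reflects only how far single arrays lay apart, which may in part be technical.

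DEN is not reactive until a P450 enzyme hydroxylates it, after which it breaks down to a species that ethylates DNA. CYP2E1 and, in the mouse, CYP2A5 are the enzymes best known for this step, and both are made in hepatocytes around the central vein. A P450 takes its electrons from the reductase encoded by Por. The CYP1A genes are switched on by the aryl hydrocarbon receptor (Ahr), and Cyp2b10 is the classic target of the constitutive androstane receptor, which Nr1i3 encodes. Cyp3a11 is the classic target in the mouse of the pregnane X receptor.

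The windows around the start sites of the genes that the results turn on are given first, 250 bases before the start site to 50 after it, 5′ to 3′ on the strand of the gene, from RefSeq on build GRCm38.p6. Cyp1a1 is shown because it was called among the 4 genotypes after DEN, and Cyp1a2 as its neighbour in the same family. Nr1i3 is shown because it was the other gene called, and Cyp2e1 as the main DEN-activating enzyme. Capitals mark GCGTG, the core of the site that the aryl hydrocarbon receptor binds, and TATAAA. The 4 windows lie at chr9:57697363-57697662 on the plus strand (Cyp1a1), chr9:57683606-57683905 on the minus strand (Cyp1a2), chr1:171213720-171214019 on the plus strand (Nr1i3) and chr7:140763569-140763868 on the plus strand (Cyp2e1).
Cyp1a1: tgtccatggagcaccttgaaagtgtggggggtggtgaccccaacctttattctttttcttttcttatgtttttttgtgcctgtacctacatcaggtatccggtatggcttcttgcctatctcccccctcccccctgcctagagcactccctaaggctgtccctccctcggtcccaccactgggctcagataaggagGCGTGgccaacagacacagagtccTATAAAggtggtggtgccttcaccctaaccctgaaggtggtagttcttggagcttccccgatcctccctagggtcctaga
Cyp1a2: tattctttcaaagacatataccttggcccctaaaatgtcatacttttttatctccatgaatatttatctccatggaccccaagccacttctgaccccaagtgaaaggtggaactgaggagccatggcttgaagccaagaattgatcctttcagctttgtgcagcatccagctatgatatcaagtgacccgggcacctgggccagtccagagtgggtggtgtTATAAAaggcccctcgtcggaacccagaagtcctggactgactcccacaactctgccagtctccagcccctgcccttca
Nr1i3: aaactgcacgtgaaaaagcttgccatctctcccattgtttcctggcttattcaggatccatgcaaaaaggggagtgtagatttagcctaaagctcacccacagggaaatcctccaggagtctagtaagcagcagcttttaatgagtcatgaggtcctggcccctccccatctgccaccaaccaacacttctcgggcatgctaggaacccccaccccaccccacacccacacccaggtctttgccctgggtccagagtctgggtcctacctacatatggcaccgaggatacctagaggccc
Cyp2e1: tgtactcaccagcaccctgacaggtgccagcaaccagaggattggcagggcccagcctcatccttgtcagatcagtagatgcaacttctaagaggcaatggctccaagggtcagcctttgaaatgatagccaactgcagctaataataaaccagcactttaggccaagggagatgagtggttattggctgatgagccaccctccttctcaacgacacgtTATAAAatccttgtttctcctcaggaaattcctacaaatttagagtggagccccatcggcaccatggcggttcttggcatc

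The Cyp1a1 window held GCGTG at bases -54 to -50 and TATAAA at -30 to -25, counted from the start site. The Cyp1a2 window held TATAAA at -29 to -24 and the Cyp2e1 window at -31 to -26, and neither held GCGTG. The Nr1i3 window held no match to either motif. Among the other listed genes with a window, Cyp2b10 had 2 matches to GCGTG and Por had 3, Cyp2a5 and Cyp3a11 had 1 TATAAA each, and Cyp3a13 had none. TTTNNCGC, the letters of an E2F site, was found in none of the 9 windows. On either strand, GCGTG occurred in 32.4%, TATAAA in 13.6% and TTTNNCGC in 5.17% of the 32851 promoter windows in the same table. Motifs were searched on both strands, none of the matches overlapped another, and a match is a run of letters and no measured binding.

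Levels are log2 of the normalized intensity plus 16, so a gene with no signal reads 4, and changes of dim genes are understated. They are compared between arrays for 1 gene, since each probe set has its own brightness. The percentiles given below rank genes by that brightness and do not compare amounts of RNA between genes. The arrays' deposited intensities had medians of 76.87 to 82.99 on the 9 arrays of the first array batch and 48.2 to 73.3 on the 4 of the second, and batch entered every fit as a term. Knockout and untreated arrays lay in the first batch alone. The 8 hepatocyte markers, among them Alb and Apoa1, averaged 12.16 to 12.49 on all 13 arrays. Knockout array 2 also held skeletal muscle transcripts: 7 of 9 muscle markers were highest there, and Tnnt3 read 11.96 against at most 6.18 elsewhere. Rb1 read 7.92 and 6.57 on the arrays labelled knockout and 7.15 to 8.43 on the other 11, but where its probes lie relative to the floxed exon is not given, so the level does not check the label. Xist and Y-linked transcripts showed 4 female and 1 male mouse for N750F, and males alone for knockout and heterozygous. Wild type mice with DEN were females alone, and untreated mice 1 of each. In every difference of knockout or heterozygous from wild type with DEN, genotype and sex therefore cannot be told apart. Heterozygous array 4 had Y-linked transcripts at 9.34 with Xist at 8.05, between the 5.64 to 6.17 of the other male and the 12.31 to 12.78 of the female arrays. In liver RNA, fewer cells of a type and less RNA per cell cannot be told apart.

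**Figure D1:**
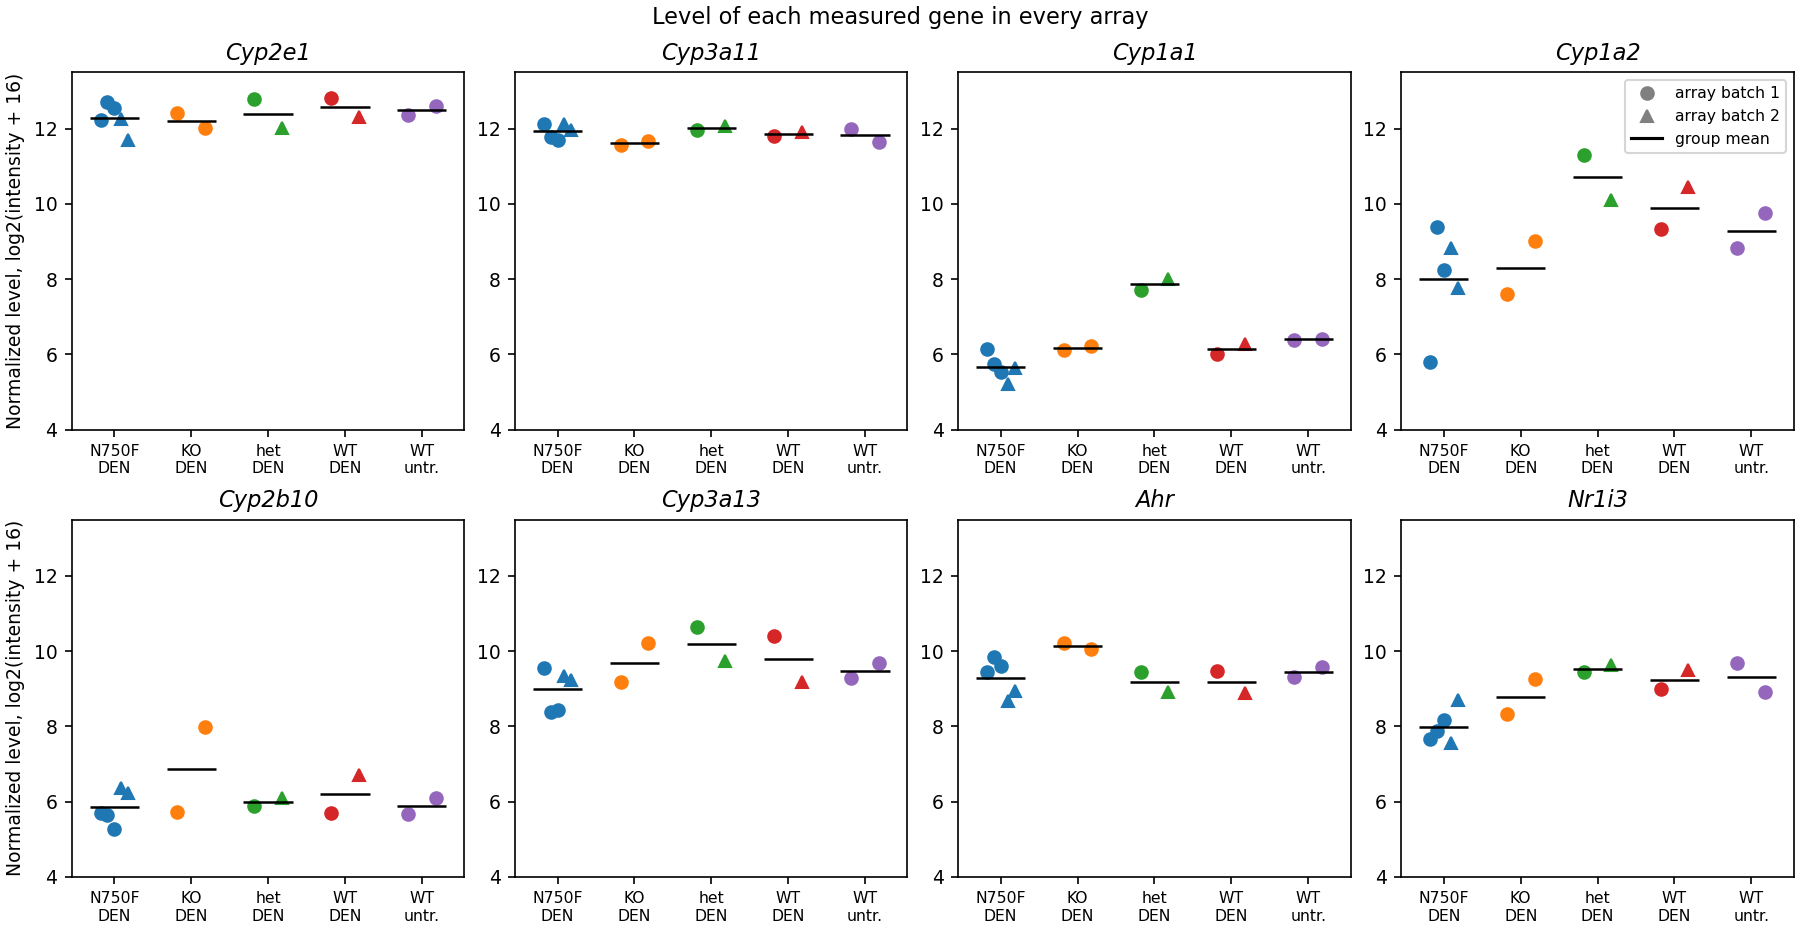
Normalized level, log2(intensity + 16), of the 8 measured genes in every array, by group, with circles for array batch 1, triangles for array batch 2 and a line at the group mean. Cyp1a1 lies between 7.72 and 8.00 in the heterozygous arrays and at most at 6.42 in all others, while the Cyp2e1 values of the 5 groups overlap.

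Cyp2e1, the enzyme that hydroxylates DEN, had a bright signal in every group and was not called different between any pair of them. It read 12.23, 12.70, 12.56, 12.25 and 11.71 in N750F livers, 12.42 and 12.01 in knockout livers and 12.78 and 12.01 in heterozygous livers. Wild type livers read 12.83 and 12.31 with DEN and 12.38 and 12.59 untreated. All 5 groups overlapped. Without the batch term, the group means spanned 0.35 on the log2 scale, within a spread over single arrays of 1.12 that also holds the batch shift. The knockout difference from wild type with DEN after the batch term, -0.64, was larger than that span. Its mean level stood at percentile 99.8 of all genes measured.

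The log2 difference of Cyp2e1 from wild type with DEN was -0.33 ± 0.23 (SE; 95% interval -0.82 to 0.15) in N750F livers, with a limma Benjamini-Hochberg adjusted p of 0.517. In knockout livers it was -0.64 ± 0.28 (-1.25 to -0.03, adjusted p = 0.556), and in heterozygous livers -0.17 ± 0.27 (-0.75 to 0.40, adjusted p = 0.935). The intervals reach down to 0.421 of the wild type level in knockout livers, so equal levels were not shown. The knockout interval, taken alone, does not include 0, and its unadjusted p was 0.0405. Wild type livers with DEN differed from untreated ones by 0.37 ± 0.28 (-0.24 to 0.98, adjusted p = 0.628). Cyp2e1 read lower on the second array batch, by a batch term of -0.58 (adjusted p = 0.0481), and the differences above are those left after that term. Knockout and heterozygous mice were male and wild type mice with DEN female, so genotype and sex cannot be told apart in those differences.

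Cyp1a1, which encodes the enzyme most strongly induced through the aryl hydrocarbon receptor, was the 1 gene of the 8 with a called difference among the 4 genotypes after DEN. It read 6.15, 5.74, 5.53, 5.20 and 5.64 in N750F livers, 6.12 and 6.23 in knockout livers, 7.72 and 8.00 in heterozygous livers and 6.01 and 6.28 in wild type livers with DEN. Untreated wild type livers read 6.38 and 6.42. Both heterozygous arrays lay above all 11 others, and no other array passed 6.42. On the linear scale the normalized intensity was 194.37 and 240.57 in heterozygous livers, against 48.63 and 61.95 in wild type livers with DEN. In N750F livers it was 55.19, 37.44, 30.1, 20.73 and 34.03, close to the dim end of the array, since the gene's mean level stood at percentile 36.7.

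The F-test over the 4 genotypes gave Cyp1a1 an F of 28.13 and an adjusted p of 0.00257 (limma), where 1.34% of all genes were called. The call was lost in the first array batch alone (adjusted p = 0.218) and without heterozygous array 4 (adjusted p = 0.0533). The next gene in that test was Nr1i3 (adjusted p = 0.0698), and the other 6 had adjusted p-values of 0.21 to 0.772. 4 of the 8 passed an unadjusted p of 0.05, and the share of all genes passing that threshold was not counted.

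Cyp1a1 fell by 2.22 ± 0.24 on the log2 scale in N750F livers relative to heterozygous livers (95% interval -2.73 to -1.70, limma adjusted p = 0.000546). It was 1 of 2 listed genes called there, both lower, where 1.64% of all genes were called, 1.3% higher and 0.334% lower. All 5 N750F arrays lay below both heterozygous arrays. Each array batch held 1 heterozygous array, against which the difference was -2.58 in the second batch and -1.91, not called, in the first. It was called in all 13 fits that left out 1 array, with differences of -2.47 to -1.99. Both heterozygous mice were male and 4 of 5 N750F mice female, and a fit that also held the Y-linked level of each array gave -1.89 (adjusted p = 0.0252).

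Cyp1a1 also fell in knockout livers relative to heterozygous livers, by 1.73 ± 0.30 (95% interval -2.38 to -1.08, limma adjusted p = 0.0401). All 4 mice of this comparison had Y-linked transcripts, but the call was lost when the fit also held the Y-linked level (-1.68, adjusted p = 0.0515). It was the only listed gene called there, where 0.301% of all genes were called and 0.0803% called lower. Of 9 other settings 3 kept the call. It was lost in the first array batch alone (-1.54, adjusted p = 0.269), with the compared groups alone (0.732), with the replicate number as a block in place of batch (-2.27, 0.24), without quantile normalization (0.0997) and with an offset of 1 (0.0716). It was also lost without N750F array 2, 3 or 5, heterozygous array 3 or 4, knockout array 1 or either untreated array, with adjusted p-values of 0.0605 to 0.233 and differences of -2.02 to -1.54. Without knockout array 2, which held the muscle transcripts, it was kept.

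Relative to wild type with DEN, Cyp1a1 in heterozygous livers differed by 1.71 ± 0.29 (95% interval 1.09 to 2.33), with an unadjusted p of 3.8e-05 and a limma adjusted p of 0.284. In this comparison 0.00669% of all genes, 1 gene, were called, and none of the 8. Over 13 fits with 1 array left out, the difference ran from 1.47 to 1.95 without being called. The heterozygous mice were male and these wild type mice female, so genotype and sex cannot be told apart here. Relative to untreated wild type, Cyp1a1 rose 2.83-fold in heterozygous livers (95% interval 1.80-fold to 4.45-fold, adjusted p = 0.0319), the only one of the 8 called there, where 1.4% of all genes were called and 0.675% called higher. That call was lost without either heterozygous array (adjusted p = 0.084 and 0.191), without either untreated array (0.226 and 0.101), and without N750F array 2 or 5 (0.0531 and 0.0508). Of 10 other settings 3 kept it. It was lost in the first array batch alone (0.179), with the compared groups alone (0.151), with the replicate block (0.175), with the Y-linked level (0.11), without quantile normalization (0.0845), with an offset of 1 (0.0623) and without the batch term (0.0525).

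In N750F livers Cyp1a1 was below both wild type groups without passing the test. The difference was -0.51 ± 0.24 from wild type with DEN (limma adjusted p = 0.351) and -0.72 ± 0.25 from untreated wild type (adjusted p = 0.11). All 5 N750F arrays lay below both untreated arrays, but array 1 lay above the lower of the wild type arrays with DEN. The knockout difference from wild type with DEN was -0.02 ± 0.30 (95% interval -0.67 to 0.64), and wild type with DEN differed from untreated by -0.21 ± 0.30 (adjusted p = 0.833).

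Cyp1a2, the constitutive member of the family in the liver, varied more between arrays of 1 group than any other of the 8 genes in N750F livers. It read 5.81, 9.37, 8.24, 8.83 and 7.78 in N750F livers, 7.59 and 9.01 in knockout livers and 11.31 and 10.11 in heterozygous livers. Wild type livers read 9.33 and 10.45 with DEN and 8.83 and 9.75 untreated. The lowest value, 5.81, was the male N750F mouse, and both heterozygous arrays were above all N750F and knockout arrays. N750F livers differed from heterozygous livers by -2.68 ± 0.74 (95% interval -4.27 to -1.09, limma adjusted p = 0.115) and from wild type with DEN by -1.86 ± 0.74 (adjusted p = 0.268). When the fit also held each array's Y-linked level, the N750F difference from heterozygous was -4.53 and was called (adjusted p = 0.0215), as it was without N750F array 2 (-3.05, adjusted p = 0.0496). Knockout livers differed from heterozygous livers by -2.28 ± 0.93 (adjusted p = 0.44) and from wild type with DEN by -1.46 ± 0.93 (adjusted p = 0.701).

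Ahr, the receptor that drives both CYP1A genes, did not follow the order of Cyp1a1. It read 9.44, 9.85, 9.61, 8.66 and 8.93 in N750F livers, 10.23 and 10.06 in knockout livers, 9.45 and 8.92 in heterozygous livers and 9.48 and 8.90 in wild type livers with DEN. Untreated wild type livers read 9.32 and 9.58. Both knockout arrays were above all 11 others. The heterozygous group mean, 9.18, was the lowest of the 5 before the batch term, next to 9.19 in wild type livers with DEN. With batch in the fit, heterozygous livers differed from untreated ones by 0.09 ± 0.25 (limma adjusted p = 0.919). The knockout difference was 0.60 ± 0.25 from wild type with DEN (95% interval 0.06 to 1.15, limma adjusted p = 0.536) and 0.61 ± 0.25 from heterozygous livers (adjusted p = 0.456), so neither passed. Between N750F livers and wild type livers with DEN, Ahr differed by 0.04 ± 0.20 (-0.40 to 0.48). The 4 arrays of the second batch held the 4 lowest values, and the batch term was -0.71 (adjusted p = 0.0129).

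Nr1i3, which encodes the constitutive androstane receptor, was lower in N750F livers than in heterozygous and in untreated livers. It read 7.67, 7.87, 8.17, 7.57 and 8.70 in N750F livers, 8.32 and 9.25 in knockout livers, 9.43 and 9.63 in heterozygous livers and 8.99 and 9.49 in wild type livers with DEN. Untreated wild type livers read 9.69 and 8.92. All 5 N750F arrays lay below every heterozygous and wild type array, and 1 knockout array lay among the N750F values and the other among the wild type values. In normalized intensity this was 173.56 to 398.67 in N750F livers, against 494.14 and 702.48 in wild type livers with DEN.

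Nr1i3 fell by 1.51 ± 0.33 in N750F livers relative to heterozygous livers (95% interval -2.21 to -0.80, limma adjusted p = 0.0338). The difference was -1.53 in the first array batch and -1.50 in the second, without passing in either alone. Each of these values rests on 1 heterozygous array. The call was lost without N750F array 1, 2 or 4 (adjusted p = 0.0674, 0.0696 and 0.0676), without heterozygous array 3 or 4 (0.189 and 0.369), and when the fit held the Y-linked level too (-1.41, adjusted p = 0.337). It was also lost with the replicate block (0.0976), with an offset of 1 (0.0564), without quantile normalization (0.0562) and without the batch term (0.0537), and 4 of 11 settings kept it. Relative to untreated wild type it fell by 1.42 ± 0.34 in N750F livers (adjusted p = 0.0307), where 6.21% of all genes were called, 3.87% higher and 2.34% lower. That call was lost without N750F array 1, 2 or 3 (0.0598, 0.0629 and 0.0599), without untreated array 1 (-1.04, adjusted p = 0.37) and without untreated array 2 (-1.81, adjusted p = 0.0534). It was also lost with the replicate block (0.114), without the batch term (0.0959), without quantile normalization (0.0726), in the first array batch alone (0.0595) and with an offset of 1 (0.0502).

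Relative to wild type with DEN, the comparison that differs in genotype and holds females on both sides but for 1 mouse, Nr1i3 in N750F livers differed by -1.22 ± 0.33 (95% interval -1.93 to -0.52). Its limma adjusted p was 0.094, and it was not called in any of the 13 fits that left out 1 array, which gave -1.41 to -1.01. In knockout livers the difference was -0.31 ± 0.41 (adjusted p = 0.867) and in heterozygous livers 0.29 ± 0.39 (adjusted p = 0.921). None of the 8 genes was called for N750F against wild type with DEN, where 1.42% of all genes were called, 1.13% higher and 0.288% lower. Of the 8, 2 passed an unadjusted p of 0.05, Nr1i3 and Cyp1a2, and the share of all genes passing it was not counted.

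Cyp2b10, whose transcription the constitutive androstane receptor controls, was dim, at percentile 30 of all genes measured. It read 5.69, 5.66, 5.28, 6.36 and 6.23 in N750F livers, 5.73 and 7.98 in knockout livers, 5.88 and 6.09 in heterozygous livers and 5.69 and 6.70 in wild type livers with DEN. Untreated wild type livers read 5.68 and 6.11. The single high value was knockout array 2, and knockout array 1 lay within the range of every other group but heterozygous. The knockout difference from wild type with DEN was 1.00 ± 0.53 (limma adjusted p = 0.636). With knockout array 2 as the only knockout sample, assumed to vary like the other groups, it was 2.12 (adjusted p = 0.0257), and without that array it was -0.12. On that array the muscle markers averaged 8.60, against 5.81 to 6.13 on the 12 others, and their part in the Cyp2b10 value was not tested.

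Cyp3a11 and Cyp3a13, both drug-metabolizing P450 genes of the CYP3A family, were not called in any comparison. Cyp3a11 ranged from 11.70 to 12.12 in N750F livers, with 11.57 and 11.68 in knockout livers, 11.97 and 12.07 in heterozygous livers, 11.80 and 11.91 in wild type livers with DEN and 12.00 and 11.65 in untreated ones. Its difference of N750F from wild type with DEN was 0.10 ± 0.20 (95% interval -0.33 to 0.53), the narrowest interval of the 8 genes. Cyp3a13 ranged from 8.39 to 9.54 in N750F livers, with 9.17 and 10.22 in knockout livers, 10.65 and 9.74 in heterozygous livers, 10.40 and 9.19 in wild type livers with DEN and 9.27 and 9.68 in untreated ones. It lay lower in all N750F arrays than in both heterozygous arrays, by -1.22 ± 0.42 (limma adjusted p = 0.242).

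**Figure D2:**
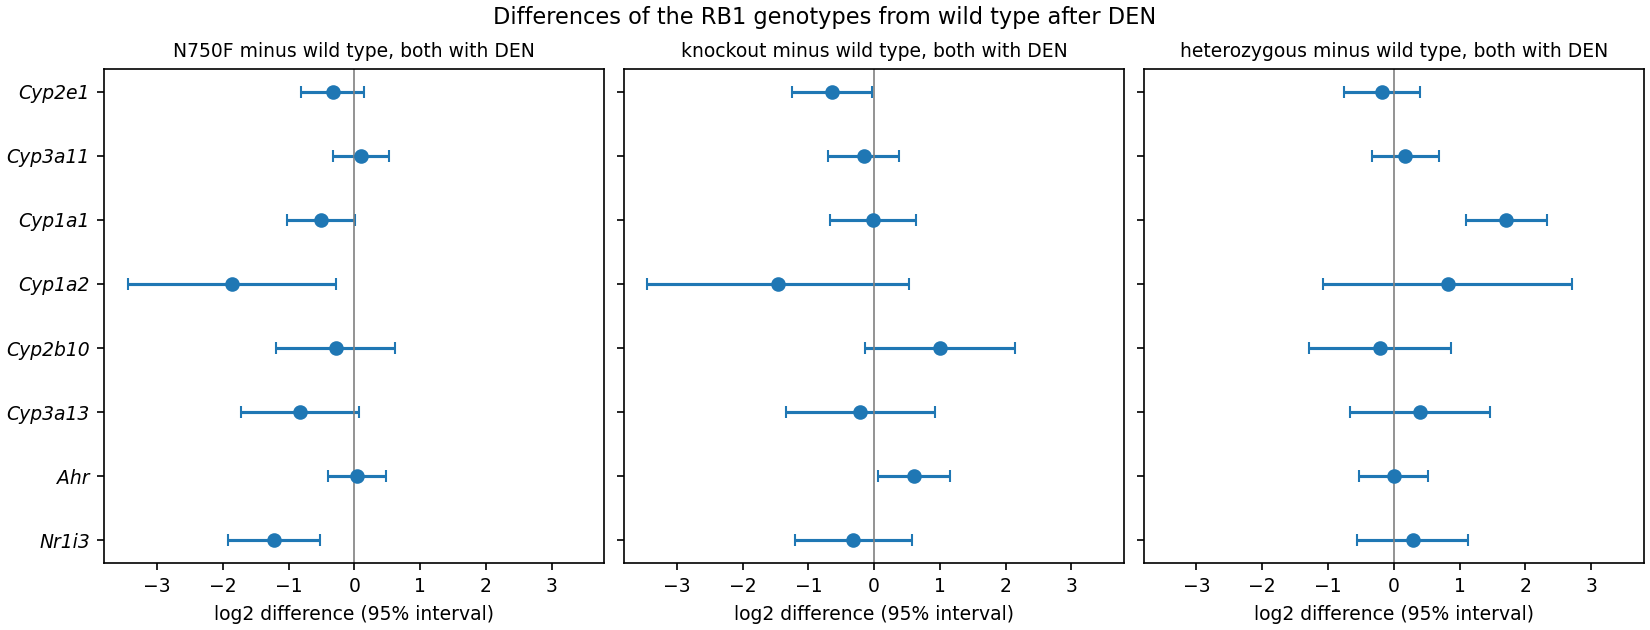
Log2 difference (point) with its 95% interval (bar) of each measured gene from wild type with DEN, for N750F, knockout and heterozygous livers, from the limma fit. None of these differences passed after adjustment over 14953 genes, and the interval of Cyp1a1 in heterozygous livers, 1.09 to 2.33, lies farthest from 0. Knockout and heterozygous mice were male and wild type mice with DEN female.

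Put together by comparison, none of the 8 genes was called for knockout against wild type with DEN, where 0.0468% of all genes were called. Of the 8, 2 passed an unadjusted p of 0.05. The share of all genes passing unadjusted was not counted for this or any other comparison. None was called for N750F against knockout, where 0% of all genes were called and 3 of the 8 passed unadjusted. For wild type with DEN against untreated wild type, none was called and none passed unadjusted, where 0.689% of all genes were called. None was called for knockout against untreated wild type, with 0.0869% of all genes called. The median difference of the 8 was -0.42 for N750F and -0.18 for knockout against wild type with DEN, and 0.23 for heterozygous, while the median of all genes was -0.01 in each. The array means of the 8 genes ran from 8.58 to 8.92 in N750F livers, 8.89 to 9.55 in knockout, 9.57 to 9.90 in heterozygous, 9.32 to 9.40 in wild type with DEN and 9.19 to 9.34 in untreated livers. Comparisons that use the same wild type or heterozygous arrays share their deviations, so these differences are not separate observations.

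**Figure D3:**
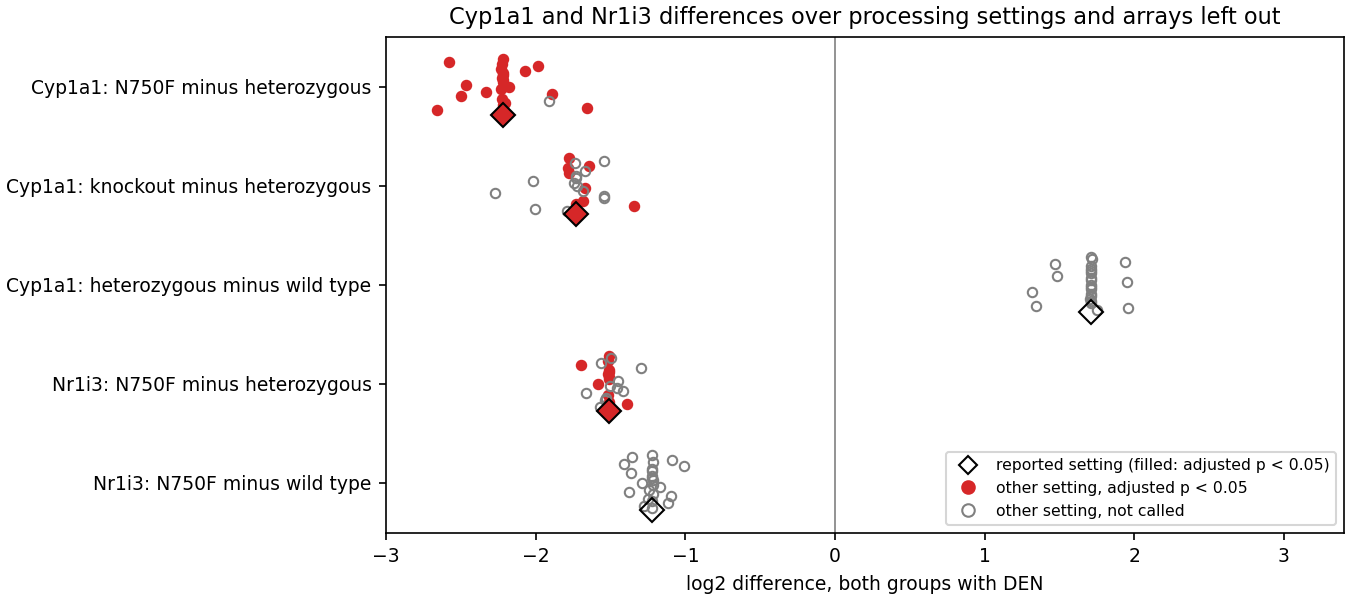
Log2 difference, for 3 comparisons of Cyp1a1 and 2 of Nr1i3 between groups with DEN, in the reported fit (diamond) and in every other setting, including each array left out (circles), filled where the adjusted p was below 0.05. Every value plotted here kept the sign of its reported difference. The Cyp1a1 difference of N750F from heterozygous livers was called in all settings but the first array batch alone, -1.91. Each batch alone held 1 heterozygous array.

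In the order of the group means, taken without the batch term, Cyp1a1 ran from heterozygous through untreated wild type, knockout and wild type with DEN to N750F. Heterozygous arrays did not overlap untreated ones, and untreated did not overlap knockout, while the neighbours from knockout down to N750F overlapped. Knockout differed from untreated by only -0.23 ± 0.29 (limma adjusted p = 0.867). How many of all genes separate 2 arrays from 2 others in this way was not counted. Nr1i3, Cyp1a2 and Cyp3a13 were likewise highest in heterozygous and lowest in N750F livers, but neighbouring groups in those 3 orders overlapped. Cyp2e1 was highest in wild type with DEN and lowest in knockout, and no neighbours in its order were apart.

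The genes whose level over the 13 arrays ran most like each of these were chosen by Pearson's r, as a description of arrays that share groups and batches. Cyp1a2 ran most like Gstm2, a glutathione transferase gene (r = 0.928), and Oat, the ornithine aminotransferase gene of pericentral hepatocytes (r = 0.88). Cyp1a1 ran most like Pctp (r = 0.859), Nr1i3 like Rassf7 (r = 0.904), and Cyp2e1 like Akr1c14 (r = 0.882). Ahr ran most like Sfswap (r = 0.922), Cyp2b10 like Crcp (r = 0.917), Cyp3a11 like Ucma (r = 0.878) and Cyp3a13 like Cdo1 (r = 0.848).

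The wider P450 system was described through lists of genes. Several of its members were called between wild type livers with DEN and untreated ones, while none of the 8 genes was. These groups also differ in sex and array batch. Ephx1, which encodes the microsomal epoxide hydrolase of the same membrane, read 10.56 to 11.05 in wild type livers with DEN, against 8.34 to 8.62 untreated. It rose by 2.64 ± 0.30 (limma adjusted p = 0.00428) and by 2.12 ± 0.25 in N750F, 2.39 ± 0.29 in knockout and 2.65 ± 0.30 in heterozygous livers relative to the same 2 untreated arrays (adjusted p = 0.00164, 0.0051 and 0.00151). Of the other settings, 7 of 10 kept the call for wild type with DEN, 10 of 10 for N750F, 7 of 9 for knockout and 7 of 10 for heterozygous livers. The call held in every fit that left out 1 array, except knockout without untreated array 2 (adjusted p = 0.077). Nqo1, a quinone reductase gene that the aryl hydrocarbon receptor and NRF2 both induce, rose by 2.26 ± 0.44 in wild type livers with DEN (adjusted p = 0.0364), a call kept in 5 of 13 such fits. Nqo1 was the 1 of 7 tested genes of the aryl hydrocarbon receptor pathway that was called, and the list median was 0.73 against -0.02 for all genes. Of all genes in this comparison, 0.689% were called and 0.301% called higher. Of 18 targets of the constitutive androstane and pregnane X receptors 2 were called, both higher: Cyp2c54 by 2.87 ± 0.58 (adjusted p = 0.0428) and the retinal dehydrogenase gene Aldh1a1 by 1.70 ± 0.27 (adjusted p = 0.0136). Foxa2, a liver transcription factor gene, fell by 1.69 ± 0.33 (adjusted p = 0.0377). These 3 calls were kept in 6, 10 and 5 of the 13 fits that left out 1 array.

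Tiparp, another direct target of the aryl hydrocarbon receptor, read 7.71 to 7.95 in N750F, 8.02 to 8.86 in knockout, 6.60 to 7.93 in heterozygous and 7.13 to 7.63 in wild type livers with DEN, against 5.88 to 6.06 untreated. It rose by 2.01 ± 0.31 in N750F livers (limma adjusted p = 0.00701, lost without untreated array 1, 0.105) and by 2.47 ± 0.35 in knockout livers (adjusted p = 0.0137) relative to untreated wild type. The knockout call was lost without either untreated array (0.0996 and 0.102) and without knockout array 1 (0.0506). Cyp1a1 did not go with it, since it read lower in N750F and knockout livers than in untreated ones. Nqo1 was lower in N750F than in heterozygous livers, by -1.76 ± 0.35 (adjusted p = 0.0201), and this was lost without heterozygous array 3 or 4 (0.215 and 0.138) and without N750F array 4 (0.0548). Relative to untreated wild type, Nqo1 rose by 1.51 ± 0.37 in N750F livers (adjusted p = 0.0316), while Cyp1a1 differed by -0.72 without being called.

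Among 26 tested genes of the CYP1, CYP2 and CYP3 families outside Cyp2c, 2 were lower and 0 higher in N750F than in wild type livers with DEN, with a median of -0.10 over the list. Of all genes in this comparison 0.288% were called lower and 1.13% higher. Cyp2f2, a periportal P450 gene, read 8.40 to 8.75 in N750F livers, against 9.69 to 9.99 in wild type livers with DEN, and fell by 1.27 ± 0.22 (limma adjusted p = 0.012). The call was lost without wild type array 4 (-0.97, adjusted p = 0.402). Heterozygous livers read 8.21 to 8.66, knockout livers 8.85 to 8.96 and untreated livers 8.69 to 9.27, so both wild type arrays with DEN were above every other array. The heterozygous difference of Cyp2f2 from wild type with DEN was -1.40 ± 0.26 and the knockout difference -1.02 ± 0.28, neither of them called (adjusted p = 0.56 and 0.272). Cyp2d13 fell by 1.18 ± 0.27 (adjusted p = 0.0475), a call kept in 3 of 13 fits that left out 1 array. Relative to heterozygous livers, where 0.334% of all genes were called lower, 2 of the 26 were lower in N750F livers, Cyp2d13 by -1.40 ± 0.27 (adjusted p = 0.0166) and Cyp3a57 by -1.07 ± 0.22 (adjusted p = 0.0224). The same 2 genes were lower in knockout livers relative to heterozygous livers, by -1.86 ± 0.34 and -1.51 ± 0.27 (adjusted p = 0.0419 for both), kept in 1 and 2 of 13 such fits.

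The targets of the constitutive androstane and pregnane X receptors had 4 of 18 tested genes lower and 0 higher in N750F than in wild type livers with DEN, with a list median of -0.40, where 0.288% of all genes were called lower. The list was chosen with earlier results of these data known, so the count is a description and no test. Called genes of the same family are not separate observations. Cyp2c50 fell by 2.81 ± 0.42 (limma adjusted p = 0.00791) and its close relative Cyp2c54 by 2.86 ± 0.46 (adjusted p = 0.00954), and whether their probes separate the 2 genes was not tested. The Cyp2c50 call was lost without wild type array 4 (adjusted p = 0.256), and the Cyp2c54 call without wild type array 3 or 4 (0.0718 and 0.136). The glutathione transferase genes Gstm1 and Gstm3 were the other called genes, at -0.93 ± 0.20 and -0.87 ± 0.20, and these calls were kept in 4 and 2 of the 13 fits that left out 1 array. Relative to heterozygous livers 4 of the 18 were again lower and 0 higher in N750F livers, where 0.334% of all genes were called lower, with a list median of -0.60, among them Gstm1 at -1.57 ± 0.20 (adjusted p = 0.00145) and Gstm2 at -2.06 ± 0.41 (adjusted p = 0.0219). Both were lost without heterozygous array 4 (0.0888 for Gstm1, 0.137 for Gstm2), and Gstm2 also without heterozygous array 3 (0.234). The array means of the list were 8.87 to 9.31 in N750F, 9.21 to 9.40 in knockout, 9.80 to 9.93 in heterozygous, 9.43 to 9.87 in wild type livers with DEN and 9.18 to 9.25 untreated.

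**Figure D4:**
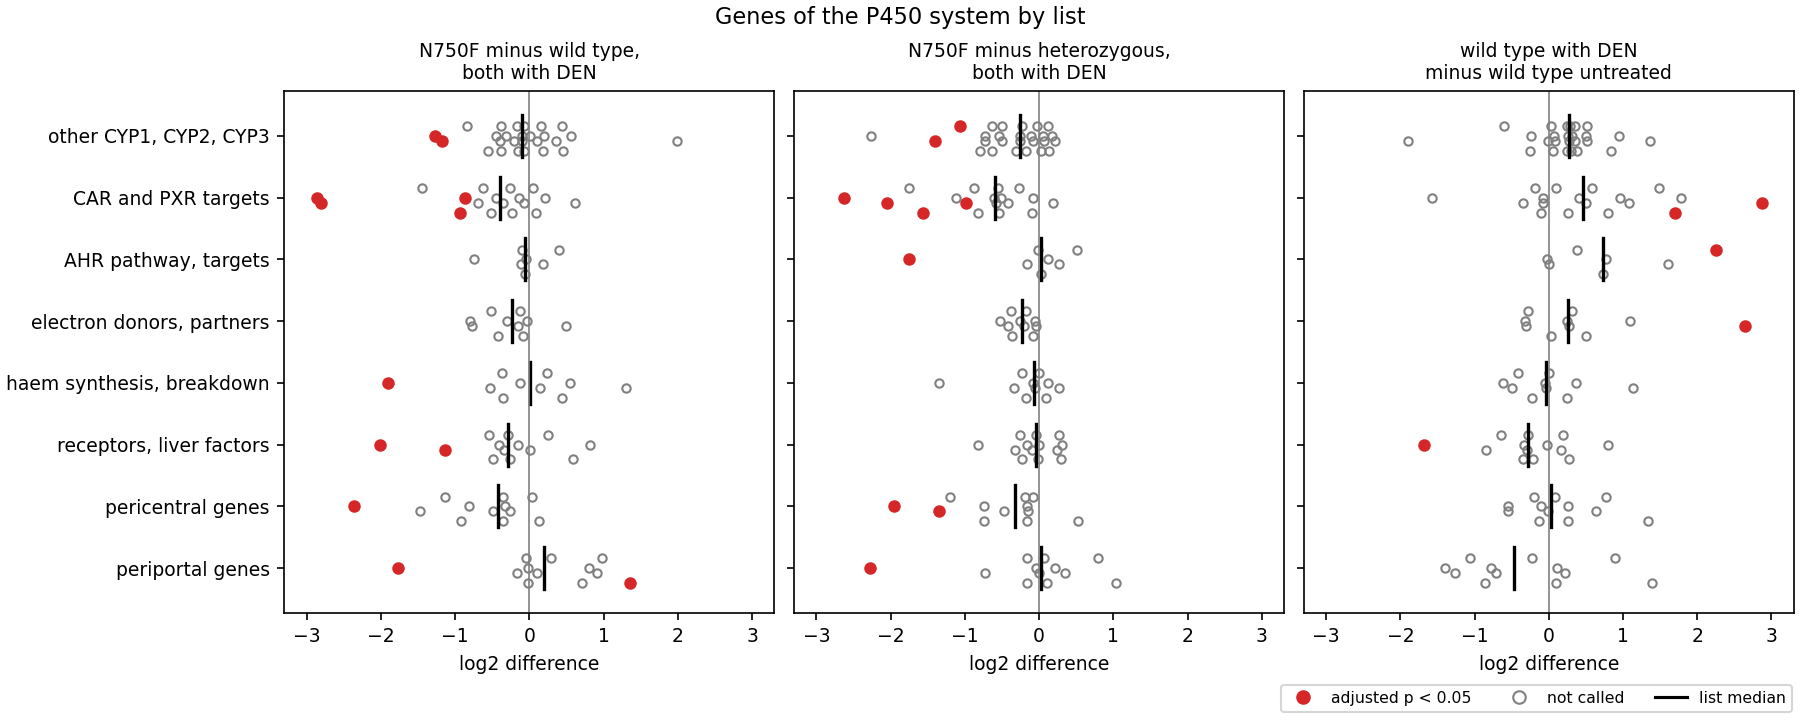
Log2 differences of the tested genes of 8 lists in 3 comparisons, with filled points for an adjusted p below 0.05, open points for the rest and a bar at the list median. The called genes of the receptor target list lie at negative values in both N750F comparisons, and Ephx1, Nqo1, Cyp2c54 and Aldh1a1 lie at positive values for DEN in wild type livers.

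The electron donors and membrane partners of the P450 enzymes had 0 of 10 tested genes called in N750F livers relative to wild type with DEN by limma, and the lowest p among them was that of Fdx1, the mitochondrial ferredoxin gene (-0.80 ± 0.20, adjusted p = 0.0684). Of 10 genes of haem synthesis and breakdown 1 was lower, Alas1, the rate-limiting enzyme of haem synthesis in the liver. Alas1 read 6.24 to 6.88 in N750F livers, against 8.42 to 8.49 in wild type livers with DEN, a fall of 1.90 ± 0.38 (adjusted p = 0.0246) kept in 9 of 13 fits that left out 1 array. Of 13 receptors and liver transcription factors, 2 were lower in N750F livers, where 0.288% of all genes were called lower. Onecut1, which encodes the liver factor HNF6, fell by 2.01 ± 0.29 (adjusted p = 0.00688), lost without wild type array 3 (-1.40, adjusted p = 0.0515), and Cebpb by 1.14 ± 0.26 (adjusted p = 0.0483), kept in 3 of 13.

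Where hepatocytes sit in the lobule sets which P450 genes they make, and 12 tested pericentral genes, chosen without Cyp2e1 and Cyp1a2, were described for that reason. Of all genes, 0.288% were called lower and 1.13% higher in N750F than in wild type livers with DEN. In N750F relative to wild type livers with DEN, 1 of the 12 was lower and 0 higher, the glutamate transporter gene Slc1a2 (-2.36 ± 0.54, limma adjusted p = 0.0481, kept in 1 of 13 fits that left out 1 array), with a list median of -0.42. Relative to heterozygous livers Oat (-1.95 ± 0.39, adjusted p = 0.0194) and Gstm6 were lower in N750F livers, where 0.334% of all genes were called lower. The Oat call was lost without heterozygous array 3 or 4 (0.204 and 0.146) and without N750F array 5 (0.0543). Array means of the pericentral list were 7.62 to 8.20 in N750F, 7.81 to 7.86 in knockout, 8.30 to 8.54 in heterozygous and 8.53 to 8.54 in wild type livers with DEN, against 8.39 to 8.42 untreated. Of 12 periportal genes, 1 was higher and 1 lower in N750F than in wild type livers with DEN, with a list median of 0.19, beside the same 1.13% and 0.288% of all genes.

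Marker lists of other liver and blood cells had mostly positive differences for N750F against wild type livers with DEN, and 1 gene among them was called. Of all genes in this comparison 1.13% were called higher. The 8 Kupffer cell and macrophage markers averaged at most 8.05 in N750F, 7.78 in knockout, 7.29 in heterozygous and 6.96 in wild type livers with DEN, against 8.09 untreated, and no wild type array with DEN reached the lowest array of any other group. All 8 had positive differences for N750F against wild type with DEN, with a median of 1.05, and 1 was called by limma, Vsig4 (1.65 ± 0.27, adjusted p = 0.01). That call was lost without wild type array 4 (1.18, adjusted p = 0.388). The stellate cell list had 6 of 6 positive differences (median 0.46), the sinusoidal endothelial list 7 of 7 (median 0.21) and the neutrophil list 4 of 4 tested (median 0.83), and none of these genes was called. Stellate markers averaged 7.80 to 8.22 in N750F and 8.10 to 8.26 in knockout livers. They averaged 7.45 to 7.67 in wild type livers with DEN and 8.06 to 8.28 untreated. Neutrophil markers averaged 5.69 to 6.46 in N750F livers, against 5.30 to 5.31 in wild type livers with DEN and 6.12 to 6.36 untreated. Sinusoidal endothelial markers averaged 8.06 to 8.58, 7.87 to 8.09 and 8.30 to 8.42 in the same order. In each of these lists both wild type arrays with DEN were below both untreated arrays. The erythroid list had 2 of 3 tested genes positive and the cholangiocyte list 2 of 2, again with none called. The 8 hepatocyte markers averaged 12.22 to 12.44 in N750F and 12.26 in both wild type livers with DEN, and none of them was called. The part of the cell makeup in the levels of the P450 genes was not tested. The arrays measured RNA, and neither the enzymes nor their activity on DEN.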

How the data were processed

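Total RNA from 13 frozen livers was labelled with NuGEN's WT-Ovation Pico kit for Affymetrix arrays, per the labels' protocols. The authors deposited linear intensities of 35556 probe sets, and the submitters' processing notes name RMA and Affymetrix Expression Console 1.1. The files' genome build is not given in the sources used here. Of 23410 probe sets with an annotated gene, 21789 had a single symbol, 1621 had several and were not used, and 21698 symbols were brought up to date by Entrez ID.

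The deposited intensities were quantile-normalized over the 13 arrays and taken as log2(intensity + 16). The brightest single-symbol probe set stood for each of 19938 genes, and genes in the lowest 25% by mean were left out, which left 14953. limma 3.58.1 in R 4.3.3 fitted 5 groups and the array batch (the run in the raw array names), with 7 residual degrees of freedom. Moderated tests were made for 10 differences and for the 4 genotypes after DEN, with Benjamini-Hochberg adjustment over all genes and a call at adjusted p below 0.05. The batch term was called for 2187 genes. The scripts were tested on simulated data.

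The genes and lists were chosen with earlier results of these data known, so the list counts beside the shares of all genes describe and do not test. From each list, up to 4 called genes per comparison with the largest change could be named, or up to 2 with the smallest p where none was called. Fdx1 is an example of the second kind. The 3 genes most like each P450 gene were found by Pearson's r, and at most the first 2 are printed. The alternatives were no quantile step, offsets of 1 and 50, no filter, no batch term, 1 batch alone, the compared groups alone, a replicate block, the Y-linked level in the fit and each array left out. Replicate numbers were not treated as pairs. Batch 2 alone and both knockout arrays left out were added after the data were seen.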

Additional observations from a re-analysis of the deposited data

How the results depend on the processing

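The number of the 8 genes called was 0 for N750F against wild type with DEN, heterozygous against wild type with DEN and wild type with DEN against untreated in all fits. With 1 array left out it ran from 1 to 2 for N750F against heterozygous, from 0 to 1 for knockout against wild type with DEN, knockout against heterozygous, N750F against knockout, and N750F, knockout and heterozygous against untreated, and from 0 to 3 for the genotypes together. In the first array batch alone it was 0 for every comparison that had a call. In the second alone, a choice made after seeing the data, N750F against heterozygous rested on 1 heterozygous array, so no count is given. With an offset of 1, without quantile normalization and with a replicate block in place of the batch term, it was 1 for N750F against heterozygous and 0 for knockout against heterozygous and for N750F and heterozygous against untreated. Without a batch term it was 1 for N750F against heterozygous and 0 for N750F and heterozygous against untreated. With the compared groups alone it was 0 for knockout against heterozygous and heterozygous against untreated, as it was with the Y-linked level in the fit. For the genotypes together it was 2 with an offset of 50 or with the Y-linked level. The cause of these shifts was not tested.

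The numbers of all genes called moved as well. With 1 array left out, and then over the other settings, they were 2 to 494 and 0 to 319 for N750F against wild type with DEN (212 as reported), 0 to 92 and 0 to 15 for knockout (7), and 0 to 131 and 0 to 6 for heterozygous (1). They were 18 to 314 and 1 to 314 for N750F against heterozygous (245), 2 to 135 and 0 to 48 for knockout against heterozygous (45), and 0 to 511 and 0 to 3 for N750F against knockout (0). Against untreated they were 4 to 226 and 0 to 226 for wild type with DEN (103), 13 to 1355 and 16 to 1355 for N750F (928), 0 to 46 and 0 to 26 for knockout (13), and 28 to 407 and 2 to 407 for heterozygous (210). Over the genotypes together they were 109 to 536 and 0 to 238 (200). Leaving out both knockout arrays, also chosen after seeing the data, changed no count of the 8 genes. No called value of the 8 genes changed sign. Of 67 calls of genes from the lists, 3 were kept whichever array was left out and 1 in all settings. With knockout array 1 left out, Cyp2b10 was called for knockout against wild type with DEN (2.12, adjusted p = 0.0257), against heterozygous (2.33, 0.0151) and against untreated (2.08, 0.0189), and for N750F against knockout (-2.41, 0.00247).

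Replicates with the same number correlated from -0.131 to 0.452 in their deviations from the group means over 12 pairs, 7 of them over 0.1. In groups of 2 arrays the deviations mirror each other, so these pairs are not separate observations. The deviations also hold the batch shift, so these values cannot decide whether the numbers mark pairs. The pairs numbered 3 and 4 correlated at 0.27 to 0.452, and in the heterozygous and wild type groups with DEN these numbers coincide with the array batches. With the replicate block, Cyp1a1 in N750F against heterozygous livers was -2.50 (adjusted p = 0.00477) and Nr1i3 -1.66 (0.0976). No second single-symbol probe set existed for any of the 8 genes, so that alternative was not run. Since 4 of the 5 groups held 2 arrays each, precision is set by the few arrays.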
